A study of Mus musculus with 2 samples.

Results

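The immunoglobulin chain genes described here are 8 listed genes: the kappa constant gene Igkc, the lambda constant genes Iglc1, Iglc2 and Iglc3, the heavy chain constant genes Ighm and Ighd, the joining chain gene Jchain, and Mzb1, a chaperone of the endoplasmic reticulum that assists IgM assembly. They were chosen by name, out of 17683 genes listed in either library. All 8 were listed in the PBS library and 7 in the Igfbpl1 library, where Jchain was not among the genes listed. Single-cell RNA sequencing measured CD45-positive immune cells that had been sorted from retina, in B6 mice in which microbeads induced glaucoma, a disease of raised eye pressure. The Igfbpl1 group was glaucomatous mice given Igfbpl1, a protein related to the insulin-like growth factor binding proteins, and the PBS group glaucomatous mice given saline buffer. Each group was 1 library pooled from 10 mice aged 8 to 10 months, so both carried the microbeads and no group lacked the disease. The dose and route of Igfbpl1 are not given in the sources used here.

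An antibody is made of heavy and light chains, and each B cell normally keeps either a kappa or a lambda light chain. A naive B cell carries IgM and IgD on its surface through alternative splicing of one heavy chain transcript. A plasma cell secretes antibody, fills with immunoglobulin RNA and makes the joining chain, which links IgM and IgA into polymers. In mice kappa is by far the more common light chain.

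The 3 lambda constant genes lie on the minus strand of mouse chromosome 16 and resemble each other, which bears on how far their counts can be told apart. The last 300 coding bases of each, the part nearest the captured 3′ end, are shown for that reason, from the GENCODE M21 annotation of mm10. Capitals mark each base of Iglc3 or Iglc1 that differs from Iglc2 or has no partner in it. The Iglc2 stretch is chr16:19198539-19198838, the Iglc3 stretch chr16:19065368-19065667 and the Iglc1 stretch chr16:19061755-19062054.
Iglc2: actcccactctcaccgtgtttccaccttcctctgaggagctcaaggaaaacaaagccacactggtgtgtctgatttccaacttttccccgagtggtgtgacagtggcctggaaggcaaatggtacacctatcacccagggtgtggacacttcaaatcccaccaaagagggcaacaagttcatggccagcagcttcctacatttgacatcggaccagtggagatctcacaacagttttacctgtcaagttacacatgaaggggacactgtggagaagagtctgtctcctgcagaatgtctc
Iglc3: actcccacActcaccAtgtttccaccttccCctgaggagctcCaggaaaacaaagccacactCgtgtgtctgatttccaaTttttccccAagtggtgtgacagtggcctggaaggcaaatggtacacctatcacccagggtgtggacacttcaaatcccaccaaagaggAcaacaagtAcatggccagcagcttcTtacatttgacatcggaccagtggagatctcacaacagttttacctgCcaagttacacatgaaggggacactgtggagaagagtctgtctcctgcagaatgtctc
Iglc1: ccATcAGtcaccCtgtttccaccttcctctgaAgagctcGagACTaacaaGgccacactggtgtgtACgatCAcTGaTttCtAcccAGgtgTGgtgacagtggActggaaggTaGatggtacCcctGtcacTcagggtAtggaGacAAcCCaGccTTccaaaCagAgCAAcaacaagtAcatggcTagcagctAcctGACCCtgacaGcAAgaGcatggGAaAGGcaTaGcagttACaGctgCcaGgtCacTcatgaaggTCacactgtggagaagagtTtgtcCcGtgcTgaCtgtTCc
Over their whole coding stretches Iglc3 matched Iglc2 at 303 of 314 aligned bases (96.5%), with a longest shared run of 79 bases. Iglc1 matched Iglc2 at 234 of 313 (74.8%), with a longest shared run of 19 bases. Over whole transcripts, untranslated end included, Iglc3 matched Iglc2 at 431 of 452 aligned bases (95.4%) and Iglc1 matched it at 317 of 438 (72.4%). A sequence tag inside a long shared run could be counted for either of Iglc2 and Iglc3, so the split between them is uncertain, while Iglc1 is more easily told apart.

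The other genes lie on mouse chromosome 6 (Igkc, 70726435 to 70726966, plus strand), chromosome 12 (Ighm, 113418558 to 113422730, and Ighd, 113406604 to 113416324, minus strand), chromosome 5 (Jchain, 88519809 to 88527891, minus strand) and chromosome 18 (Mzb1, 35647267 to 35649367, minus strand). Igkc overlaps Gm30211 on the same strand. Ighd lies downstream of Ighm.

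UMIs, the molecular tags that let captured transcripts be counted, numbered 9463631 over 3330 cells in the Igfbpl1 library and 3795008 over 1055 cells in the PBS library. Median depth was 2355.5 UMIs per cell in the Igfbpl1 library and 3433 in the PBS library, and no cell barcode was shared. Cells were assigned to 12 classes by the number of distinct marker genes with a UMI, and none of the 8 genes was a marker. B-like cells numbered 63 of 3330 (1.89%, 1.46 to 2.41%) in the Igfbpl1 library and 79 of 1055 (7.49%, 5.97 to 9.25%) in the PBS library. The marker Cd79a, which signals for the antigen receptor, had a UMI in 58 of 63 B-like cells in the Igfbpl1 library and 79 of 79 in the PBS library. Median depth of B-like cells was 1486 UMIs in the Igfbpl1 library and 2235 in the PBS library. With 1 library per group no difference between the groups was tested. Each interval below is an exact 95% interval for counting error alone, and each ratio compares these libraries, not the treatments. Levels are UMIs of a gene scaled to the total of its class as CPM. The counts come from the 3′ ends of transcripts and are not scaled by gene length.

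Immunoglobulin transcripts marked B-like cells in both libraries, and Igkc was the leading gene among them in the PBS library. In the Igfbpl1 library, Igkc reached 4548 CPM in B-like cells (4210 to 4907) against 28.0 CPM in all other cells, a 162-fold difference (141 to 188). In the PBS library it reached 8764 CPM (8346 to 9197) against 10.3 CPM, an 854-fold difference (617 to 1218). Among genes ordered by log2 ratio of B-like over other cells (10 CPM added), Igkc ranked 2 of 2935 in the Igfbpl1 library and 1 of 3370 in the PBS library. Ranks are over genes measured, meaning a mean of 50 CPM and 20 UMIs or more.

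All 7 genes measured were at least 2-fold higher in B-like cells than in other cells in the Igfbpl1 library, where 6.06% of measured genes were. The same 7 were at least 2-fold higher in the PBS library, where 14% of measured genes were. Jchain was not measured in either. A gene passes the minimum through the class where it is high, so these counts only describe. The Igfbpl1 folds ran from 12.4 (10.6 to 14.6) for Ighm to 705 (468 to 1109) for Iglc1, a value that rests on 1 cell described below. The PBS folds ran from 12.8 (11.2 to 14.6) for Ighm to 854 for Igkc. Ighm, the heavy chain of IgM, had the smallest fold of the 7 in both libraries, at 102 CPM in other cells of the Igfbpl1 library and 160 CPM in those of the PBS library.

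**Figure D1:**
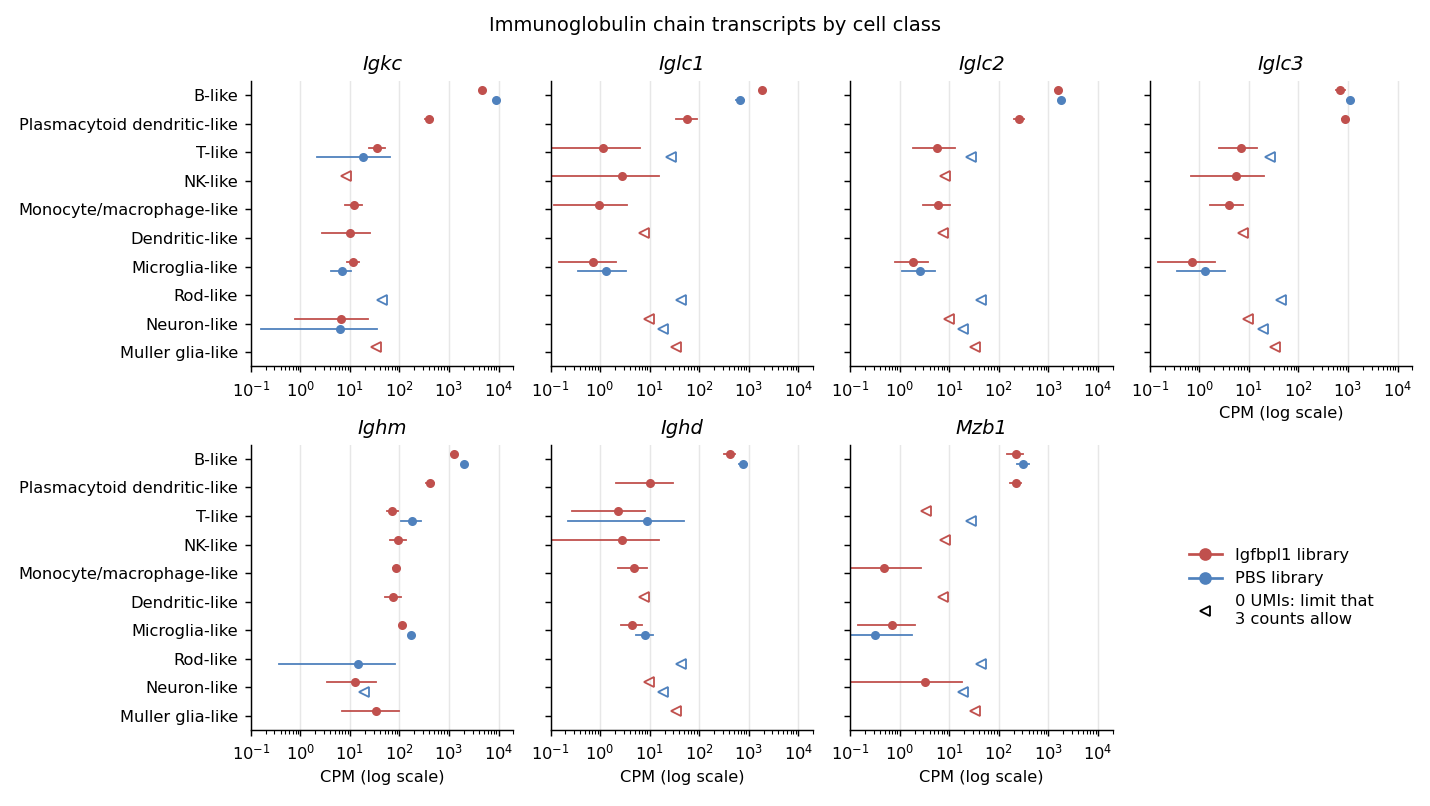
Levels of the 7 genes listed in both libraries, in CPM on a log scale, by cell class, for classes of at least 20 cells. Points are class totals, lines exact 95% Poisson intervals and open triangles the limit that 3 counts allow where no UMI was seen. B-like cells lie far to the right for every gene, plasmacytoid dendritic-like cells share Iglc3 and Mzb1 with them, and Ighm is spread over all immune classes.

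Cells of the B class carried less of most chains in the Igfbpl1 library than in the PBS library, in CPM. Igkc stood at 4548 CPM in the Igfbpl1 library and 8764 CPM in the PBS library, a ratio of 0.519 (0.474 to 0.568). Per cell, the lowest, median and highest Igkc counts were 0, 9 and 33 UMIs in the Igfbpl1 library and 0, 20 and 59 UMIs in the PBS library. The ranges overlap, and the quartiles of 6 to 14 UMIs in the Igfbpl1 library and 12 to 28 UMIs in the PBS library barely touch, with the depth difference included.

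Ighm was 1273 CPM in the Igfbpl1 library and 2049 CPM in the PBS library (ratio 0.621, 0.519 to 0.742). Ighd, the IgD heavy chain, was 422 CPM in the Igfbpl1 library and 770 CPM in the PBS library (0.548, 0.401 to 0.743). Iglc3 was 701 CPM in the Igfbpl1 library and 1115 CPM in the PBS library (0.629, 0.492 to 0.800). Igkc and these 3 genes were lower in the Igfbpl1 library by more than counting error. Iglc2 was 1573 CPM in the Igfbpl1 library and 1810 CPM in the PBS library (0.869, 0.732 to 1.03). Mzb1 was 218 CPM in the Igfbpl1 library and 313 CPM in the PBS library (0.696, 0.438 to 1.09). For Iglc2 and Mzb1 the interval includes a ratio of 1. The 7 genes together gave 10629 CPM in the Igfbpl1 library and 15484 CPM in the PBS library (0.686, 0.645 to 0.730).

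None of the 7 was at least 2-fold lower, where 7.79% of 2452 measured genes were. Iglc1 alone was at least 2-fold higher, where 7.46% were. At 1.5-fold, 22.6% of measured genes were lower and 14.1% higher, and the median log2 ratio of all measured genes was -0.14. On that scale, with 10 CPM added, Igkc stood at -0.94, and 9.18% of measured genes lay lower. Ighd stood at -0.85 (11.5% lower) and Ighm at -0.68 (18.6% lower).

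Other values of the same cells differed too. The 10 B cell markers, which chose the cells, summed to 6537 CPM in the Igfbpl1 library and 12007 CPM in the PBS library. Per UMI of those markers, Igkc was 0.696 in the Igfbpl1 library and 0.730 in the PBS library, a ratio of 0.953 (0.870 to 1.04). On the same scale Ighm had a ratio of 1.14 (0.953 to 1.36), Ighd 1.01 (0.736 to 1.37), Iglc3 1.16 (0.904 to 1.47) and Mzb1 1.28, each with an interval that includes 1. Iglc2 was higher in the Igfbpl1 library on that scale, at 1.60 (1.34 to 1.89), as were the 3 lambda genes together, at 2.13 (1.91 to 2.38), a sum that holds the 243 Iglc1 UMIs of a single Igfbpl1 cell. Microglia markers in the B-like cells summed to 742 CPM (8 of 10 with a UMI) in the Igfbpl1 library and 244 CPM (6 of 10) in the PBS library. Monocyte markers summed to 1049 CPM (8 of 10) in the Igfbpl1 library and 536 CPM (2 of 10) in the PBS library. Cells with 2 or more markers of another class made up 23 of 63 B-like cells in the Igfbpl1 library and 21 of 79 in the PBS library. Without them Igkc had a ratio of 0.691 (0.613 to 0.777), Ighm 0.715 (0.550 to 0.920) and Iglc3 1.11 (0.802 to 1.53), while Iglc2 was higher in the Igfbpl1 library at 1.35 (1.08 to 1.68). Among B-like cells of at least 1500 UMIs, 31 in the Igfbpl1 library and 74 in the PBS library, the Igkc ratio was 0.380 (0.338 to 0.426). With each cell thinned to 1000 UMIs it was 0.669, and as a mean over cells of each cell's CPM also 0.669. The Igkc ratio was thus below 1 in each of these settings, from 0.380 to 0.953, and per B marker UMI its interval includes 1. The settings differ in depth, in scaling and in the cells kept, and which of these moved the ratio was not tested. The part of other cells' RNA in these ratios was not tested.

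Iglc1 stood at 1893 CPM in the Igfbpl1 library and 664 CPM in the PBS library, a ratio of 2.85 (2.30 to 3.55), and that direction belonged to a single cell. That B-like cell of the Igfbpl1 library held 243 Iglc1 UMIs, 87.4% of the class, where the next highest B-like cell of the library held 6. Without the B-like cell of most Iglc1 UMIs in each library the levels were 245 CPM in the Igfbpl1 library and 564 CPM in the PBS library, a ratio of 0.434 (0.287 to 0.641). The cell had 3742 UMIs, 0 Igkc, 17 Iglc2, 7 Iglc3, 20 Ighm, 0 Ighd and 6 Mzb1 UMIs. Its 290 immunoglobulin UMIs were 7.75% of its total. It had a UMI for 5 of the 10 B cell markers and for 4 microglia markers. Scrublet did not call it a doublet (cells sharing a barcode). As Scrublet called 0 of the 63 B-like cells of the Igfbpl1 library, that call cannot decide whether the cell was one. Of the 10 plasma cell genes the cell had a UMI for 1, Tnfrsf17, the BCMA receptor of plasma cells.

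Light chain use separated a small set of cells with no kappa at all. In the Igfbpl1 library 1 of 63 B-like cells (1.59%, 0.0402 to 8.53%) had no Igkc UMI, and in the PBS library 5 of 79 (6.33%, 2.09 to 14.2%). All 6 had lambda UMIs, 267 in the Igfbpl1 cell and between 9 and 54 in the PBS cells. All 6 also had at least 4 Iglc1 UMIs. Above 0, the next lowest kappa share of light chain UMIs was 33.3% in the Igfbpl1 library and 41.9% in the PBS library among cells with at least 5 light chain UMIs, so a gap lies between these cells and the rest. The intervals of the shares overlap widely between the libraries.

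The 5 PBS cells without Igkc differed in which lambda gene they carried. In 3 of them Iglc1 prevailed, with 8, 15 and 9 Iglc1 UMIs beside 1, 4 and 1 UMIs of Iglc2 and Iglc3 together. The fourth had 20 Iglc1, 14 Iglc2 and 20 Iglc3 UMIs. The fifth had 4 Iglc1, 16 Iglc2 and 24 Iglc3 UMIs, the reverse proportion. Iglc2 and Iglc3 were thus high together in these last 2 cells and low together in the other 3.

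Cells with Igkc nearly all held lambda UMIs too, of another composition. A lambda UMI was found in 59 of 62 such B-like cells in the Igfbpl1 library and in 74 of 74 in the PBS library. Of their lambda UMIs Iglc1 gave 35 of 345 (10.1%, 7.17 to 13.8%) in the Igfbpl1 library and 69 of 540 (12.8%, 10.1 to 15.9%) in the PBS library. In the cells without Igkc it gave 243 of 267 (91.0%, 86.9 to 94.2%) in the Igfbpl1 library and 56 of 136 (41.2%, 32.8 to 49.9%) in the PBS library. UMIs within a cell are not independent cells, so these intervals are for UMIs alone. Among cells neither B-like nor plasmacytoid dendritic-like and with no B cell marker, a lambda UMI was found in 15 of 2901 (0.517%, 0.290 to 0.851%) in the Igfbpl1 library and 6 of 771 (0.778%, 0.286 to 1.69%) in the PBS library. Those cells had median depths of 2293 UMIs in the Igfbpl1 library and 3441 in the PBS library. Plasmacytoid dendritic-like cells of the Igfbpl1 library, left out of that count, had a lambda UMI in 61 of 78.

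A call by share sorted the cells less cleanly. With kappa called at an Igkc share of 80% or more and lambda at 20% or less, among cells with at least 5 light chain UMIs, kappa cells were 17 of 60 (28.3%, 17.5 to 41.4%) in the Igfbpl1 library and 33 of 79 (41.8%, 30.8 to 53.4%) in the PBS library. Lambda cells were 1 of 60 and 5 of 79, the same cells that lacked Igkc. Cells counted as holding both were 42 of 60 (70.0%, 56.8 to 81.2%) in the Igfbpl1 library and 41 of 79 (51.9%, 40.4 to 63.3%) in the PBS library. The kappa threshold cuts through a continuous range: 22 cells in the Igfbpl1 library and 42 in the PBS library lay within 10 points of it, against 0 within 10 points of the lambda threshold. Median kappa shares were 67.3% in the Igfbpl1 library and 75.8% in the PBS library. Counted instead by any Igkc UMI, a rule chosen after the values were seen, kappa cells were 98.3% of 60 in the Igfbpl1 library and 93.7% of 79 in the PBS library.

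**Figure D2:**
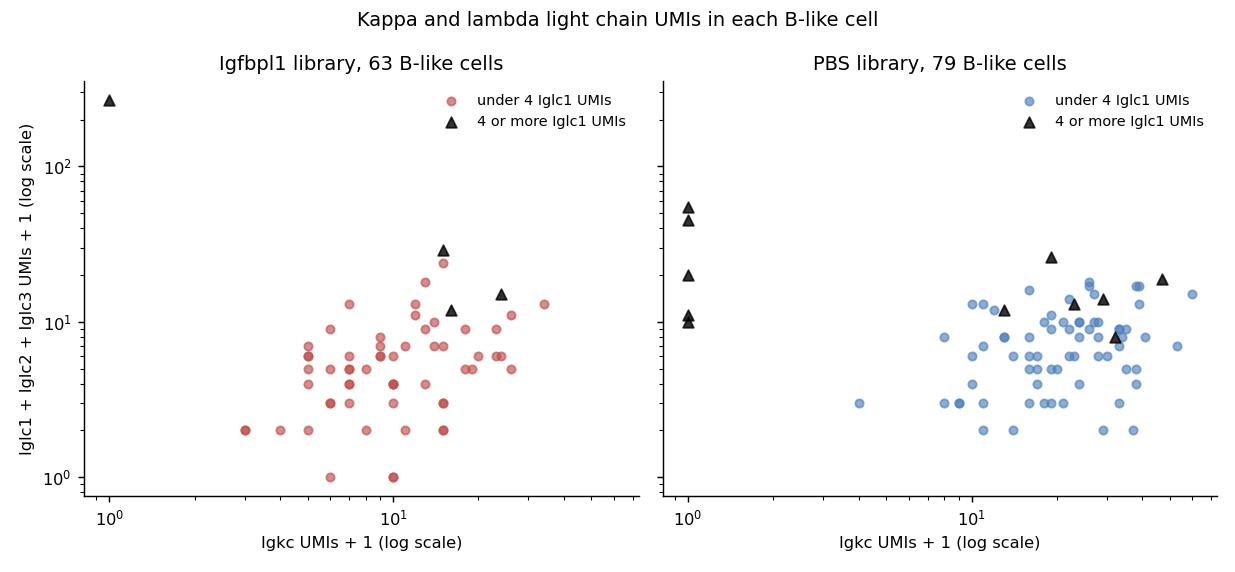
Each point is a B-like cell, with Igkc UMIs + 1 across and the summed Iglc1, Iglc2 and Iglc3 UMIs + 1 up, both on log scales; triangles mark cells with 4 or more Iglc1 UMIs. The cells without Igkc stand at the left edge, 1 in the Igfbpl1 library and 5 in the PBS library, all of them triangles, while most other cells hold both kappa and lambda UMIs.

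IgM and IgD transcripts were found together more often in B-like cells of the PBS library, which were also the deeper ones. Both Ighm and Ighd had a UMI in 24 of 63 B-like cells (38.1%, 26.1 to 51.2%) in the Igfbpl1 library and 58 of 79 (73.4%, 62.3 to 82.7%) in the PBS library. In the Igfbpl1 library 28 cells had Ighm alone, 8 Ighd alone and 3 neither. In the PBS library 19 had Ighm alone, 2 Ighd alone and 0 neither. The median cell had 2 Ighm and 1 Ighd UMIs in the Igfbpl1 library and 4 Ighm and 1 Ighd UMIs in the PBS library. After every cell was thinned to 1000 UMIs, cells with both were 27% in the Igfbpl1 library and 41.8% in the PBS library, a smaller difference than without thinning. No interval was computed for the thinned shares, so whether they differ by more than counting error is not shown.

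The share of Ighd in the pair differed by less than counting error between the libraries. Ighd gave 62 of 249 Ighm and Ighd UMIs (24.9%, 19.7 to 30.8%) in B-like cells of the Igfbpl1 library and 145 of 531 (27.3%, 23.6 to 31.3%) in the PBS library. B-like cells with at least 8 Ighm UMIs numbered 4 in the Igfbpl1 library and 13 in the PBS library. Of these, 3 of 4 in the Igfbpl1 library and 4 of 13 in the PBS library had no Ighd UMI. At least 4 Iglc1 UMIs were found in 3 of the 4 in the Igfbpl1 library and 6 of the 13 in the PBS library. Among B-like cells below 8 Ighm UMIs, 1 of 59 in the Igfbpl1 library and 5 of 66 in the PBS library had that many Iglc1 UMIs. The cells rich in Ighm were deeper, with a median of 4532.5 UMIs against 1451 for the rest in the Igfbpl1 library, and 2665 against 2181.5 in the PBS library. The 4 in the Igfbpl1 library also had 4, 3, 5 and 4 markers of a second class, and the 13 in the PBS library 1 or 2. All 4 thus fall among the cells with 2 or more markers of another class, and whether their pattern belongs to B cells was not tested. The thresholds of 8 and 4 were set after the values were seen.

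**Figure D3:**
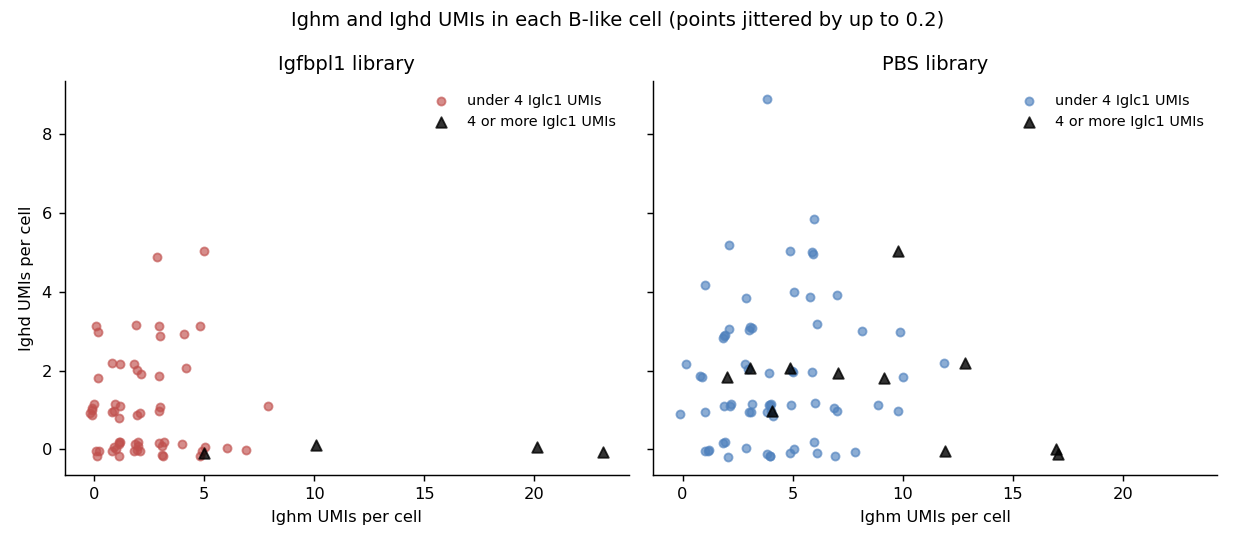
Ighm UMIs across and Ighd UMIs up in each B-like cell, jittered by up to 0.2, with triangles for cells of 4 or more Iglc1 UMIs. The 3 Igfbpl1 cells of most Ighm UMIs have no Ighd UMI, and each has at least 3 markers of a second class. In both libraries the cells of most Ighm UMIs include many of the triangles.

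Genes that work around the antigen receptor had a lower median ratio in B-like cells than all measured genes, and most did not pass 2-fold. Of 14 genes listed for antigen receptor signalling, 13 were measured, 0 were at least 2-fold higher in the Igfbpl1 library and 2 were lower, where 7.46% of all measured genes were higher and 7.79% lower. Their median log2 ratio was -0.64, beside -0.14 over all measured genes. The 2 were the adaptor Blnk at 150 CPM in the Igfbpl1 library and 318 CPM in the PBS library, and the adaptor Dapp1 at 61.3 CPM in the Igfbpl1 library and 143 CPM in the PBS library. Cd79a, the signalling partner of the surface chains, was 1689 CPM in the Igfbpl1 library and 3020 CPM in the PBS library (0.559, 0.480 to 0.650). Plcg2, a phospholipase of the pathway, had a ratio of 1.28 (0.616 to 2.67) and the co-receptor protein Cd81 one of 1.32 (0.825 to 2.10), both intervals including 1. Cd79a, Cd79b and Cd22 of this list also served as markers.

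Genes of B cell subsets and stages were also read in B-like cells. Fcer2a, the low-affinity IgE receptor CD23 of follicular B cells, was 300 CPM in the Igfbpl1 library and 303 CPM in the PBS library (0.990, 0.653 to 1.49). Of 9 genes listed for B-1 and marginal zone B cells 3 were measured, with 1 at least 2-fold higher, 0 lower and a median log2 ratio of 0.58. Of all measured genes 7.46% were higher and 7.79% lower, with a median of -0.14. The median of the 3 was that of Plac8 (ratio 1.51, 1.08 to 2.11), which also served as a monocyte/macrophage marker. The 1 higher gene was the tetraspanin Cd9, at 143 CPM in the Igfbpl1 library and 42.5 CPM in the PBS library. Other cells held Cd9 at 940 CPM in the Igfbpl1 library and 2456 CPM in the PBS library. Cr2, the complement receptor of mature B cells, was 74.9 CPM in the Igfbpl1 library and 106 CPM in the PBS library (0.706, 0.305 to 1.54). Of the 6 genes for developing B cells none was measured: Rag1, Rag2 and Igll1 were not among the genes listed in either library, and Vpreb1 had 0 UMIs in B-like cells of both. Of the 6 for germinal centres and switching only Bcl6 was measured, at 68.1 CPM in the Igfbpl1 library and 63.7 CPM in the PBS library.

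No cell met the definition of a plasma cell in either library. A candidate needed a UMI for at least 3 of the 10 plasma cell genes and at least 50 immunoglobulin UMIs. All 10 genes were listed in the Igfbpl1 library and 8 in the PBS library, where Sdc1 and Derl3 were not, so the PBS count rests on 8. The counts were 0 of 3330 in the Igfbpl1 library and 0 of 1055 in the PBS library. A count of 0 leaves room for a share of cells with such UMIs of 0.0901% in the Igfbpl1 library and 0.284% in the PBS library. Cells with at least 50 immunoglobulin UMIs numbered 2 in the Igfbpl1 library and 14 in the PBS library, all of them B-like, and none of those had more than 1 plasma cell gene. Plasma cell genes were low in B-like cells, with 27 UMIs in all in the Igfbpl1 library and 39 in the PBS library. Of the 10 only Irf4, a transcription factor of activated B cells and plasma cells, was measured, at 54.5 CPM in the Igfbpl1 library and 79.6 CPM in the PBS library (0.684, 0.251 to 1.72). Prdm1, the factor that commits cells to secretion, had 1 UMI in B-like cells of the Igfbpl1 library and 0 in those of the PBS library.

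Jchain did not follow the B cells. The PBS library held 9 Jchain UMIs in 5 cells, of which 0 were B-like. The largest count was 4 UMIs in 1 unassigned cell, followed by 3 UMIs in 2 rod-like cells and 2 UMIs in 2 microglia-like cells. None of the 5 cells had a UMI for Igkc, Ighm, Ighd, Mzb1 or any B cell marker. In 79 B-like cells of the PBS library Jchain had 0 UMIs, which allows up to 3.8% of cells with a UMI and sets no limit on cells that express it.

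Switched heavy chains were rare and were listed in the Igfbpl1 library alone. Igha, the IgA heavy chain, had 17 UMIs in 12 cells there, of which 9 UMIs were in 5 monocyte/macrophage-like cells and 2 in 2 B-like cells. Ighg2b, an IgG heavy chain, had 15 UMIs in 10 cells, of which 10 were in 5 monocyte/macrophage-like cells and 2 in 2 B-like cells. Most UMIs of both thus lay outside the small B-like class. Scaled to class totals, each gene stood at 13.6 CPM in B-like cells, a level that rests on 2 UMIs. In monocyte/macrophage-like cells Igha stood at 4.35 CPM and Ighg2b at 4.83 CPM. Sdc1, the plasma cell surface protein CD138, had 12 UMIs in 9 cells of that library, 6 of them T-like and 1 B-like. Variable segments gave 19 UMIs from 4 genes in the Igfbpl1 library and 30 UMIs from 6 genes in the PBS library. The largest were Iglv3 with 8 UMIs in the Igfbpl1 library, 7 of them in B-like cells, and Igkv1-110 with 9 UMIs in the PBS library, 7 of them in B-like cells.

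Plasmacytoid dendritic-like cells, named for a type I interferon-secreting lineage, formed the other class with high immunoglobulin RNA. They numbered 78 in the Igfbpl1 library and 3 in the PBS library, so their levels are given for the Igfbpl1 library only. All 10 markers of the class had UMIs, among them Tcf4 in 77 of 78 cells and Ccr9 in 58. Of the B cell markers Cd79a, Ms4a1, Bank1, Cd22 and Fcmr were at 0 UMIs, and 72 of the 83 UMIs over all 10 were Fcrla. A second class had at least 2 markers in 74 of the 78 cells, mostly the monocyte/macrophage class with 73. Only 4 cells are free of them, so the class was kept whole.

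Their light chain RNA was mostly Iglc3. Iglc3 stood at 856 CPM (753 to 968) in these cells, against 701 CPM (572 to 851) in B-like cells of the same library. Of their light chain UMIs Iglc3 gave 252 of 465 (54.2%, 49.5 to 58.8%), against 103 of 1280 (8.05%, 6.62 to 9.67%) in B-like cells. Igkc gave 25.6% (21.7 to 29.8%) in plasmacytoid dendritic-like cells and 52.2% (49.4 to 55.0%) in B-like cells. The 1280 UMIs of B-like cells include 267 from a single cell with 0 Igkc UMIs, which lowers the Igkc and Iglc3 shares of the class. The Iglc3 UMIs were spread over 56 of 78 cells, with a median of 3 and a highest count of 20, which was 7.94% of the class. By the share call 21 of 37 cells with at least 5 light chain UMIs were lambda (56.8%, 39.5 to 72.9%), 3 kappa and 13 both. Because Iglc2 stood at 261 CPM here and at 1573 CPM in B-like cells, the order of the near-identical pair was opposite in the classes.

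The heavy chain RNA of these cells was mostly Ighm, with little Ighd. Ighm was 411 CPM (341 to 491) in plasmacytoid dendritic-like cells and 1273 CPM in B-like cells. Ighd had 3 UMIs, or 2.42% (0.502 to 6.91%) of the Ighm and Ighd UMIs, against 24.9% in B-like cells. A low share was not particular to this class. It was 3.08% in T-like, 3.88% in microglia-like and 5.41% in monocyte/macrophage-like cells of the Igfbpl1 library. Which part of the Ighm locus the UMIs of these classes came from was not tested. Mzb1 was 217 CPM (167 to 278) in plasmacytoid dendritic-like cells, against 218 CPM (149 to 308) in B-like cells. Of the genes measured in these cells, 5 of the 8 passed the minimum (Igkc, Iglc2, Iglc3, Ighm and Mzb1). Each of the 5 was at least 2-fold higher than in all other cells, where 10.2% of 3114 genes were. Because a gene can pass the minimum through the class where it is high, this count only describes. Iglc1, at 1.85-fold (1.06 to 3.02), and Ighd, at 0.953-fold (0.193 to 2.87), did not pass it. Among the 5 the largest fold was 57.3 (46.3 to 71.0) for Iglc3 and the smallest 3.70 (3.04 to 4.47) for Ighm. Dntt, the enzyme that adds bases at V(D)J joins, had 46 UMIs in the Igfbpl1 library, all of them in these cells.

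**Figure D4:**
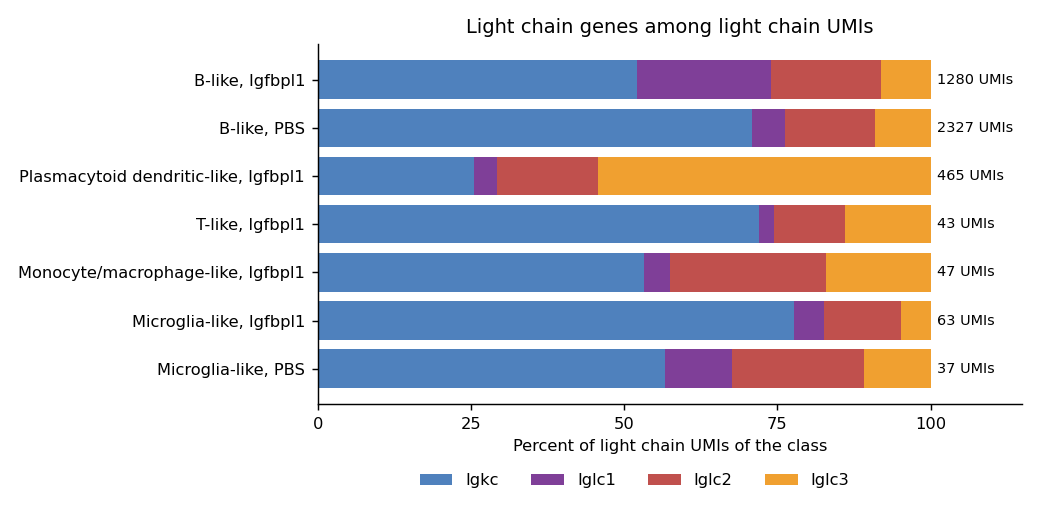
Bars split the light chain UMIs of a class into Igkc, Iglc1, Iglc2 and Iglc3, in percent, with the number of UMIs at the right. Iglc3 makes up 54.2% in plasmacytoid dendritic-like cells and 8.05% in B-like cells of the Igfbpl1 library; the Iglc1 stretch of B-like cells of that library comes mostly from 1 cell, and bars of under 100 UMIs have wide intervals.

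Immunoglobulin RNA outside these classes differed by gene. For Igkc, B-like cells held 668 of 929 UMIs (71.9%, 68.9 to 74.8%) in the Igfbpl1 library and 1651 of 1688 (97.8%, 97.0 to 98.5%) in the PBS library. Plasmacytoid dendritic-like cells held a further 12.8% in the Igfbpl1 library. For Ighm, B-like cells held only 187 of 1140 UMIs (16.4%, 14.3 to 18.7%) in the Igfbpl1 library and 386 of 963 (40.1%, 37.0 to 43.3%) in the PBS library.

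The Igkc UMIs outside lay mostly in cells that also had B cell markers. Among cells of neither class with at least 2 B cell markers, 14 of 25 had an Igkc UMI in the Igfbpl1 library (56.0%, 34.9 to 75.6%, 100 UMIs) and 2 of 15 in the PBS library (13.3%, 1.66 to 40.5%, 23 UMIs). Among those with none, 36 of 2901 had one in the Igfbpl1 library (1.24%, 0.871 to 1.71%) and 13 of 771 in the PBS library (1.69%, 0.901 to 2.87%). Their highest count was 2 UMIs in the Igfbpl1 library and 1 in the PBS library. The share differed by class. T-like cells with no B cell marker had an Igkc UMI in 17 of 284 in the Igfbpl1 library (5.99%, 3.53 to 9.41%), against 10 of 1521 microglia-like cells (0.657%, 0.316 to 1.21%) and 0 of 158 NK-like cells, which allows a share with a UMI of up to 1.90%. In the PBS library 2 of 30 such T-like cells had one (6.67%, 0.818 to 22.1%).

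Ighm was found in far more of the other cells. In microglia-like cells, which are macrophages resident in the nervous tissue, it had a UMI in 374 of 1697 (22.0%, 20.1 to 24.1%) in the Igfbpl1 library and 338 of 830 (40.7%, 37.4 to 44.2%) in the PBS library. Igkc had one in 16 of 1697 (0.943%, 0.540 to 1.53%) in the Igfbpl1 library and 12 of 830 (1.45%, 0.749 to 2.51%) in the PBS library. In cells thinned to 1000 UMIs, Ighm was found in 10.8% of microglia-like cells in the Igfbpl1 library and 14.7% in the PBS library. Its level was 111 CPM (101 to 122) in the Igfbpl1 library and 172 CPM (158 to 187) in the PBS library, a ratio of 0.648 (0.571 to 0.735).

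The Ighm signal was spread thinly over many cells. Of the 374 positive microglia-like cells in the Igfbpl1 library 297 had 1 UMI, and the highest had 4. Of the 338 in the PBS library 209 had 1 UMI, and the highest had 7. Only 11 of the 374 in the Igfbpl1 library and 8 of the 338 in the PBS library also had an Igkc UMI. Without any B cell marker the share was nearly the same, 337 of 1521 (22.2%, 20.1 to 24.3%) in the Igfbpl1 library and 259 of 637 (40.7%, 36.8 to 44.6%) in the PBS library.

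The chains stood in other proportions in microglia-like than in B-like cells. Ighm UMIs per Igkc UMI were 0.280 (0.237 to 0.330) in B-like and 9.61 (7.15 to 13.2) in microglia-like cells of the Igfbpl1 library. They were 0.234 (0.209 to 0.261) in B-like and 25.3 (16.4 to 41.2) in microglia-like cells of the PBS library. Ighd gave 3.88% (2.35 to 5.99%) of Ighm and Ighd UMIs in microglia-like cells of the Igfbpl1 library and 4.50% (2.93 to 6.57%) in those of the PBS library, below the share in B-like cells. Retinal neurons, rods and Muller glia together had 16.7 CPM of Ighm in the Igfbpl1 library and 7.33 CPM in the PBS library. Microglia-like cells stood 6.67-fold (3.21 to 16.7) above them in the Igfbpl1 library and 23.4-fold (6.45 to 194) in the PBS library. T-like cells had 71.5 CPM in the Igfbpl1 library and 180 CPM in the PBS library, and monocyte/macrophage-like cells 84.6 CPM in the Igfbpl1 library. The files hold gene totals, so the part of the Ighm locus that these UMIs came from was not tested.

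**Figure D5:**
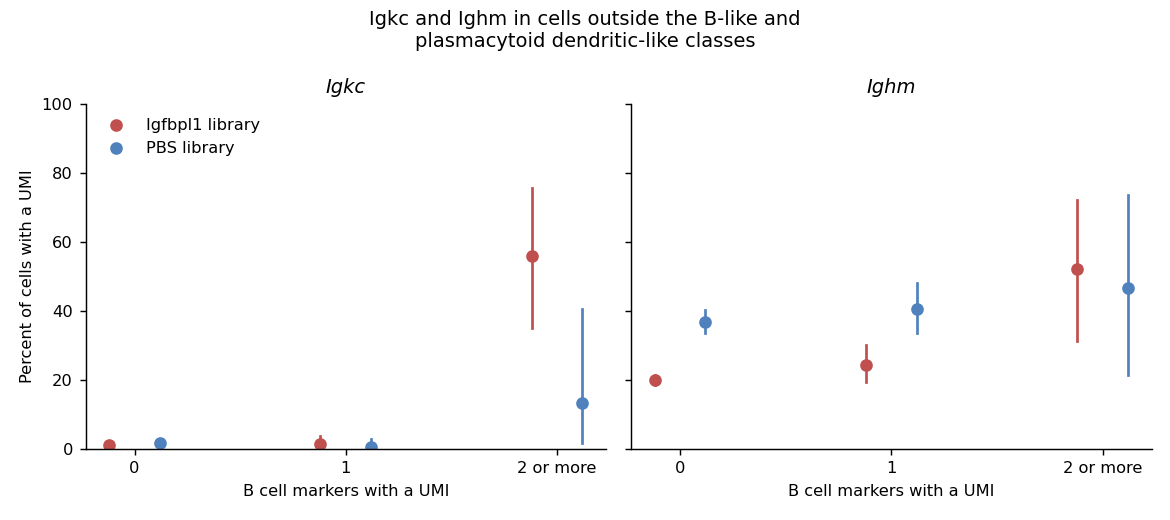
Percent of cells with an Igkc UMI (left) or an Ighm UMI (right), among cells outside the B-like and plasmacytoid dendritic-like classes, by the number of B cell markers with a UMI; lines are exact 95% Clopper-Pearson intervals. Igkc is found in fewer than 2% of cells below 2 markers and in a larger share from 2 markers on, while Ighm is found in 580 of 2901 cells of the Igfbpl1 library and 284 of 771 cells of the PBS library with no marker at all.

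The genes whose levels ran most like Igkc, the 8 genes and the B cell markers left out, were mostly those of B cells. Over 14 points, each a class in a library, and 11359 genes, Pearson's r on the log2 scale with 10 CPM added was highest for Gm30211 (0.98), which overlaps Igkc on the same strand, so that their reads may not be told apart. Then came Ly6d (0.94), a lymphocyte surface protein, Pou2af1 (0.91), a coactivator of immunoglobulin genes, Vpreb3 (0.91), a chaperone-like partner of immunoglobulin chains, and Fcer2a (0.91). The points share libraries and depth and only 2 of them are B-like, so r is a description. Pou2af1, Vpreb3 and Fcer2a each had 0 UMIs in plasmacytoid dendritic-like cells, while Ly6d was at 2574 CPM in them.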

How the data were processed

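UMI counts per gene and cell barcode were measured by the 10x 3′ method in 1 Igfbpl1 and 1 PBS library. The deposited counts are whole numbers, not normalised, and Cell Ranger 3.1 and mm10 are named in the submitters' processing notes. What cells or genes were removed upstream is not stated in them. Counts were read with Python 3.11.15, pandas 2.3.3 and numpy 2.4.6, and no barcode was left out. A cell took the class with the most of its 10 markers detected, at least 2, and ties stayed unassigned (187 cells in the Igfbpl1 library and 13 in the PBS library). UMIs were summed per class and given as CPM. Exact 95% intervals came from scipy 1.17.1, with Poisson limits on CPM, Clopper-Pearson limits on shares and binomial limits, conditional on the sum, on ratios, and a count of 0 is read with a limit of 3 counts. UMIs of 1 cell are not independent, so intervals are too narrow wherever cells differ. Log2 ratios had 10 CPM added, other ratios nothing. Genes at a mean of 50 CPM and 20 UMIs or more were measured, and 2-fold was the size called. Thinning to 1000 UMIs used seed 2. Doublets were called with Scrublet in scanpy 1.11.5 (62 of 3330 in the Igfbpl1 library and 6 of 1055 in the PBS library) and kept. Ratios and intervals were tested on simulated independent counts, which cannot check intervals where UMIs cluster in cells. The class rule was tested only on simulated B and microglia cells, drawn from PBS profiles of cells that the same markers had chosen. That test cannot check the other classes or cells of mixed class. Figures used matplotlib 3.10.9.

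The 8 genes were always named. So were at most 3 other immunoglobulin genes of most UMIs, members of the plasma, receptor signalling, developing, germinal centre, follicular, and B-1 and marginal zone lists, and the 5 genes most like Igkc. Values of some genes of these lists, and the summary of the follicular list, are not reported here. The genes and lists were chosen with earlier results of these data known. Alternatives covered the class rule, doublets, scaling, thinning, light chain thresholds, the CPM added and the gene minimum.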

Additional observations from a re-analysis of the deposited data

How the results depend on the processing

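No paired analysis was possible because each group had 1 library, and without replicates no difference was tested. Over 199 alternative values 142 stayed within the counting interval or within 1.5 times a count, and the cause of each shift was not tested. The ratio of the 7 genes together in B-like cells, Igfbpl1 over PBS, was 0.777 without cells with 2 markers of a second class, 0.579 without the richest cell of each library, 0.771 as a mean over cells, 0.750 thinned to 1000 UMIs and 0.607 in cells of at least 1500 UMIs. Per UMI of the B cell markers it turned to 1.26 (1.185 to 1.34). On that scale Iglc3 (1.16), Ighm (1.14) and Ighd (1.01) also passed 1, each with an interval that includes 1. Iglc2 (1.60) and Mzb1 (1.28), whose intervals in CPM include 1, passed 1 there too. Without cells with 2 markers of a second class Iglc3 (1.11) and Iglc2 (1.35) passed 1, and as a mean over cells Iglc2 did (1.01). Iglc1 fell below 1 without cells of a second class (0.431) and without the richest cells (0.434), where the 3 lambda genes together turned too (0.722). Igkc stayed below 1 under all 9 alternatives (0.380 to 0.953).

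The log2 of B-like over microglia-like Igkc was 7.72 in the Igfbpl1 library, against 8.95 without cells of a second class, 8.50 with 1 CPM and 6.22 with 50 CPM added. In the PBS library it was 9.03, against 10.13 with 1 CPM and 7.28 with 50 CPM. For Ighm it became 3.04 in the Igfbpl1 library and 3.24 in the PBS library with 50 CPM. Iglc3 in B-like over plasmacytoid dendritic-like cells was -0.28, and 6.69 without cells of a second class, which leaves 4 of the 78. Kappa cells at 90% and 10% were 10.0% in the Igfbpl1 library and 11.4% in the PBS library, and by any Igkc UMI 98.3% and 93.7%. Lambda cells were 0% in the Igfbpl1 library without cells of a second class. Cells with 2 UMIs each of Ighm and Ighd were 19.0% in the Igfbpl1 library and 44.3% in the PBS library, and 41.8% of PBS cells had both after thinning. With 20 immunoglobulin UMIs in place of 50, 2 cells in the Igfbpl1 library, both plasmacytoid dendritic-like, and 1 B-like cell in the PBS library met the plasma cell definition. Thinned, microglia-like cells with Ighm were 10.8% in the Igfbpl1 library and 14.7% in the PBS library, and with Igkc 0.602% in the PBS library. Genes lower in B-like cells numbered 191 of 2452, against 55 with 50 CPM added, 123 scaled by the median ratio and 553 at 1.5-fold, where 345 were higher against 183. Genes higher in B-like than other cells of the Igfbpl1 library numbered 178, against 112 with 50 CPM and 397 with no CPM minimum. Depth limits what single B-like cells can show, at medians of 1486 UMIs in the Igfbpl1 library and 2235 in the PBS library.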
